A study of Mus musculus with 12 samples.

Results

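The 44 genes described here encode the V-ATPase proton pump (14 genes), enzymes and cofactors of the lysosomal lumen (21 genes), proteins of the lysosomal membrane (7 genes) and a pair of transcription factors of lysosomal genes (Tfeb and Tfe3). They are a list of genes named by function, with no rule on their values, although the list was made with earlier results of these data known. All 44 were found among the 21959 genes of the expression table, and all 44 passed the filter on low values (1 TPM or more in all 3 libraries of some group). TPM, transcripts per 1000000 transcripts, is a share of a library corrected for transcript length. The RNA came from C8-D1A, an established mouse astrocyte line, in 4 groups of 3 libraries collected after 24 h. Control cells were kept under 5% CO2, the second group under 15% CO2, the third with 20 mM lactic acid, and the fourth in medium whose sodium bicarbonate had been lowered to 0.2 g/L (low NaHCO3). No genetic change separates the groups, all come from 1 cell line, and the labels do not say whether replicates were separate cultures, so p-values measure the spread between these libraries, which may be technical.

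Lysosomes degrade proteins, glycans and lipids with hydrolases that work at low pH. The V-ATPase supplies that acidity: its soluble V1 sector hydrolyses ATP and turns the membrane-embedded V0 sector, which carries protons across the membrane. TFEB and TFE3 enter the nucleus when nutrient signalling at the lysosome is low and bind a short palindromic motif near many lysosomal genes. In astrocytes, lysosomes clear material taken up from the surroundings of neurons, and loss of single hydrolases, or of the cofactors they need, causes storage diseases of the brain.

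One control library stood apart. In control 1 the 7 neuronal markers summed to 1906 TPM, against at most 10.2 TPM in any of the other 11 libraries, and 6 of the 7 were at or under 1 TPM in those 11. Markers of oligodendrocytes (6 of 6), microglia (9 of 9), vessels (5 of 5) and red blood cells (2 of 2) were also highest in control 1. P2ry12, C1qa and C1qb, markers of microglia, were listed at 0 in all 11 others. Of 10 astrocyte markers, 6 were at or under 1 TPM in those 11, Slc1a3 and Aqp4 among them, while Vim, S100b and Sox9 were present. Control 1 lay above all other libraries for 8 of 14 V-ATPase genes. It lay below all of them for 15 of 21 lumenal and 4 of 7 membrane genes. The share of all genes outside the range of the other 11 was not computed, so these counts have no background. In these genes control 1 pulled the control means of the pump and of the hydrolases in opposite directions. The main counts and changes are therefore given with all 12 libraries and without control 1, and the part of other cells in control 1 in each of the 12-library results was not tested beyond that. Among the other 11, Spearman correlations across genes were 0.958 to 0.98, and those of control 1 were 0.859 to 0.884.

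Promoter sequences are shown for genes that moved in low NaHCO3, to set promoters that hold the motif of TFEB beside promoters that do not. They are the 250 bases before the start of each gene, from RefSeq on GRCm38.p6, an older build than the one named for these libraries. Capitals mark TCACGTG, the core of the motif, or its reverse complement CACGTGA. The windows are Naglu (chr11:101069844-101070093, plus strand), Glb1 (chr9:114400828-114401077, plus strand), Sgsh (chr11:119355511-119355760, minus strand) and Cln3 (chr7:126583237-126583486, minus strand), and, without the motif, Hexa (chr9:59539290-59539539, plus strand) and Neu1 (chr17:34931003-34931252, plus strand).
Naglu: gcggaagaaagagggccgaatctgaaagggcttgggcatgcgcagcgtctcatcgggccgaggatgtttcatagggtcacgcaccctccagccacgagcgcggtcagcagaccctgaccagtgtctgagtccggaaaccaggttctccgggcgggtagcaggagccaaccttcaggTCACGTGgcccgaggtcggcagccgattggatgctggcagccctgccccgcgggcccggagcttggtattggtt
Glb1: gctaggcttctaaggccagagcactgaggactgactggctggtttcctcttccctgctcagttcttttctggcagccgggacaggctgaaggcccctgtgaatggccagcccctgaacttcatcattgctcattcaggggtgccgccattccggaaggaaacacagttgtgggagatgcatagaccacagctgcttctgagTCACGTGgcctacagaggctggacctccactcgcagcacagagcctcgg
Sgsh: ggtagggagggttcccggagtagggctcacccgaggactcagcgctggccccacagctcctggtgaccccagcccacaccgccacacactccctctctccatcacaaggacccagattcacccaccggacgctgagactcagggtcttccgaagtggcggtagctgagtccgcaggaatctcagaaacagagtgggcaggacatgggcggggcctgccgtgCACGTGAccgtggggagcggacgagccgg
Cln3: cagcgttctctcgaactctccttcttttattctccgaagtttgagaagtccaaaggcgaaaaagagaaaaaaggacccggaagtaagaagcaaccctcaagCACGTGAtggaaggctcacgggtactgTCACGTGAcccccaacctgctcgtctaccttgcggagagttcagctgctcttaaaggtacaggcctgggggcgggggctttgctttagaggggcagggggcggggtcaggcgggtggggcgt
Hexa: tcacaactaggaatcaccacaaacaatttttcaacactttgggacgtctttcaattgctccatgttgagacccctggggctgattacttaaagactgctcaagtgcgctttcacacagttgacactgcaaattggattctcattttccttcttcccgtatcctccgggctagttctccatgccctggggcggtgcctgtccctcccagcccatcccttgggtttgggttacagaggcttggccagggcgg
Neu1: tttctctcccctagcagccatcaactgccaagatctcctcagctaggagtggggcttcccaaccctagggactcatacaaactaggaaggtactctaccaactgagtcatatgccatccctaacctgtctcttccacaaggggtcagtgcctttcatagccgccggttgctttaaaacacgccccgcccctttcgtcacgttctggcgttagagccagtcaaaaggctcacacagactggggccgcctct
TCACGTG, searched on both strands, was present in such a window for 11 of the 38 genes with one (28.9%), against 3.58% of all 27025 genes with a window. The shorter CACGTG, which lies within it, was present for 12 (31.6%, against 6.86% of all genes). The 27025 genes are not limited to those tested here. The motif is known near many lysosomal genes, so its higher share among them is no result of these data. A match describes these letters only, and the absence of one says only that they are not in this window. The 11 genes with TCACGTG were Lamp1, Ctsa, Ctsd, Gaa, Naglu, Glb1, Sgsh, Cln3, Mcoln1, Atp6v0b and Atp6v1a. In low NaHCO3, 5 of the 11 rose (Lamp1, Ctsa, Ctsd, Gaa and Naglu) and 5 fell (Glb1, Sgsh, Cln3, Mcoln1 and Atp6v1a). Of the 27 without it, 4 rose and 5 fell, Hexa and Neu1 among them. Without control 1, 4 of the 11 rose (no longer Naglu) and 5 fell, and of the 27, 6 rose and 7 fell. Of all tested genes 20.5% rose and 35.8% fell in low NaHCO3 (23.3% and 41.4% without control 1).

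Most of the lysosomal genes that passed did so in low NaHCO3, and they moved both ways there. With all 12 libraries, 11 of 44 rose and 10 fell against control (47.7%), where 56.2% of all 11996 tested genes passed (20.5% up and 35.8% down). Without control 1, 13 rose and 13 fell (59.1%), where 64.7% of 11941 genes passed (23.3% up and 41.4% down). The share of lysosomal genes that passed was thus somewhat below the background in both fits. Their share that rose, 25% and 29.5%, lay near the background of 20.5% and 23.3%, and whether it differed was not tested. With lactic acid 4 rose and 3 fell (15.9%), where 4.4% of all genes passed (2.73% up and 1.68% down). Without control 1, 6 rose and 3 fell (20.5%), where 16.7% passed (9.38% up and 7.34% down), so the share then lay near the background. Starting from all 12 libraries, none of the 44 was called for lactic acid once any 1 of its 3 libraries was left out. With all of them in, 14 of the 44 had an unadjusted limma p under 0.05, where 2824 of all 11996 genes did. Only Npc1 was called without CO2 1 or low NaHCO3 1, and without control 2 only Npc1 and Glb1 were. Under 15% CO2 a single gene, Gaa, rose (2.27%), where 1.41% of all genes passed (1.34% up). Without control 1 Glb1 rose as well (4.55%), where 7.68% passed (6.05% up). The 3 comparisons share their control libraries. In bulk RNA, fewer cells of a type and less RNA per cell cannot be told apart.

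The direction in low NaHCO3 depended on the scaling. The median log2 change of all genes was -0.19 there (-0.17 without control 1), and scaling libraries by the median of ratios brought it to -0.01. The split of the lysosomal genes then went from 11 up and 10 down to 20 up and 5 down, where 29.7% of all genes rose and 27.1% fell. Without control 1 it was 22 up and 7 down, where 34% rose and 32.3% fell. Over the 39 alternative settings run, Hexa, Npc2, Psap, Ctsb, Ctsd and Gaa rose in every one and Neu1 and Atp6v0d1 fell in every one. TPM is a share, so a change is relative to the rest of the library. As a share, the lumenal genes took up 8448 ± 64.4 TPM in low NaHCO3 (mean ± SD, n = 3) against 6083 and 6198 TPM in controls 2 and 3, of which Psap alone made up much, and the 14 V-ATPase genes 2336 ± 62.5 against 2392 and 2395 TPM.

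**Figure D1:**
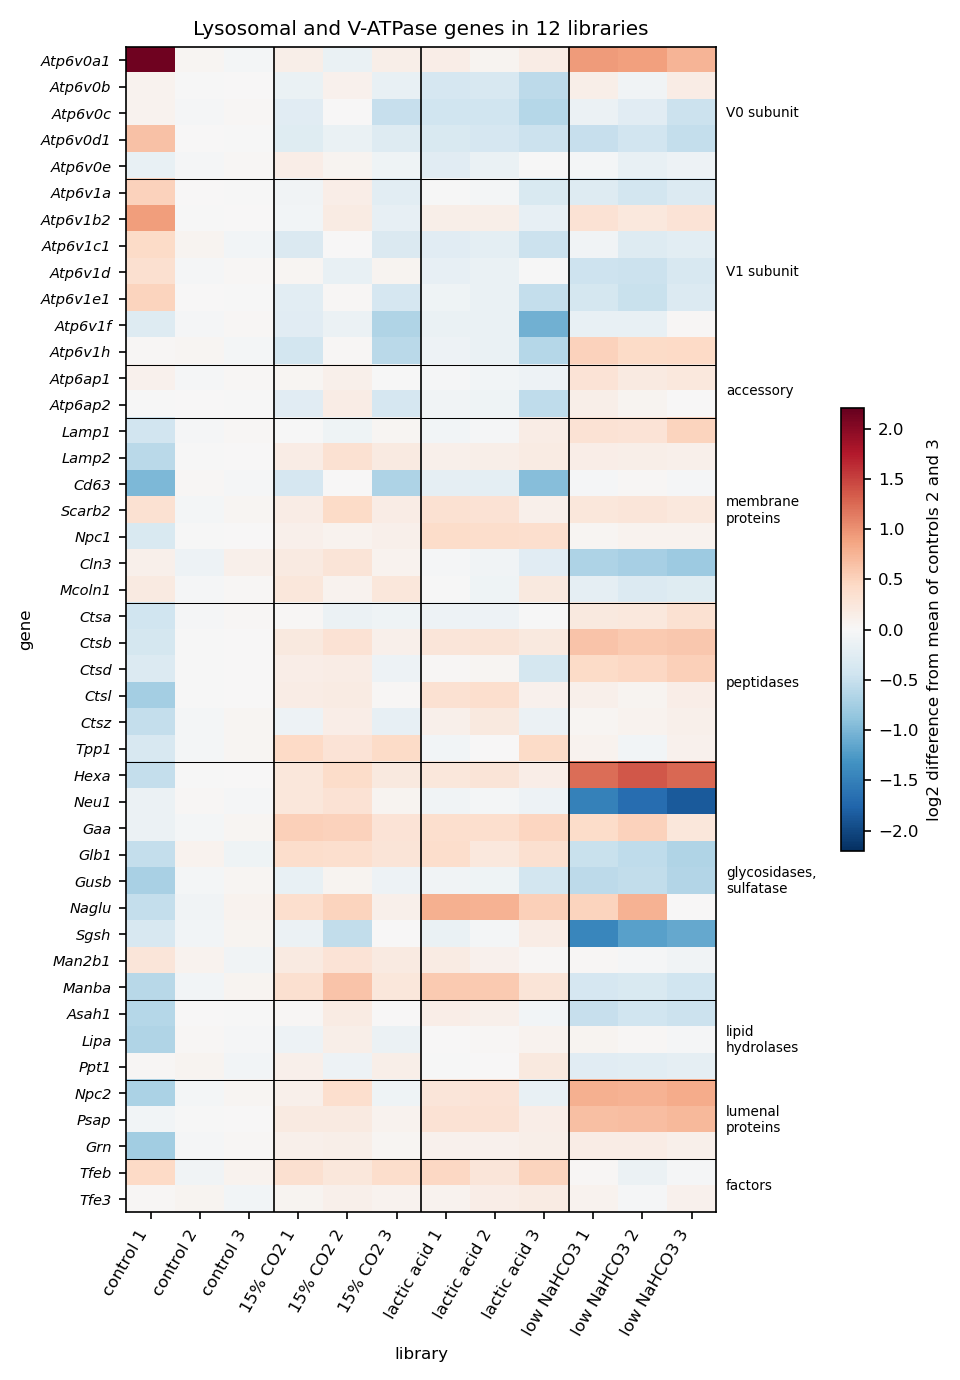
Difference of log2(TPM + 1) in each of 12 libraries (columns) from the mean TPM of controls 2 and 3 for the 44 genes (rows), grouped by role, red higher and blue lower. The column of control 1 is red for much of the V-ATPase and blue for most lumenal genes, and Hexa and Neu1 stand out in opposite colours in the 3 low NaHCO3 libraries.

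Among the 5 V0 genes, 3 fell with lactic acid, where 1.68% of all genes fell (7.34% without control 1). The calls were made in 27 of 39 alternatives for Atp6v0b and in 22 each for Atp6v0c and Atp6v0d1. Atp6v0c encodes the proteolipid of the rotating ring. It was at 137, 127 and 132 TPM in the controls, 109, 129 and 90.6 under CO2, 94.9, 95.7 and 83.2 with lactic acid and 118, 109 and 92.9 TPM in low NaHCO3. All 3 lactic acid libraries lay below all controls. The log2 change with lactic acid was -0.53 ± 0.13 (SE, limma adjusted p = 0.0476) and -0.50 without control 1. Atp6v0b, another ring proteolipid, was at 111, 104 and 106 TPM in the controls and 81.5, 82.4 and 70.2 with lactic acid (-0.45 ± 0.10, limma adjusted p = 0.0331). Its levels in low NaHCO3, 115, 100.1 and 118 TPM, overlapped the controls. Atp6v0d1, which couples the ring to V1, fell in 2 treatments. Controls were at 312, 200.3 and 196 TPM, CO2 at 164, 179 and 163, lactic acid at 156, 152 and 142, and low NaHCO3 at 139, 147 and 137 TPM. All 9 treated libraries lay below all 3 controls. The log2 changes were -0.62 ± 0.15 with lactic acid (limma adjusted p = 0.0464) and -0.70 ± 0.15 in low NaHCO3 (limma adjusted p = 0.00235), and -0.40 and -0.49 without control 1. Under CO2 the value was -0.45 ± 0.15 (limma adjusted p = 0.187), and -0.23 without control 1. About 10.76% of the 50-base stretches of Atp6v0c also occur in the pseudogenes Atp6v0c-ps1 and Atp6v0c-ps2, so its reads may have been divided.

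The value of Atp6v0a1, the a1 isoform of the V0 subunit that carries the proton channels, rested on control 1. Control 1 held 144 TPM, 4.5 times the mean of controls 2 and 3, which were at 33.1 and 31.0 TPM. Low NaHCO3 libraries were at 62.0, 60.5 and 54.4 TPM, and the other treated libraries at 28.7 to 36.0 TPM. With all 12 libraries the change in low NaHCO3 was 0.15 ± 0.44 (limma adjusted p = 0.793). Without control 1 it rose by 0.86 ± 0.10. The direction turned to -0.19 when control 2 was left out and to -0.23 when control 3 was. Against the other treatments low NaHCO3 was higher, by 0.82 over CO2 and 0.74 over lactic acid in the fit without control 1, in which both were called. With control 1 in the fit neither was. Atp6v0e, a small V0 subunit, stayed between 43.2 and 57.4 TPM in all 12 libraries and was not called.

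Among the 7 V1 genes, which form the ATP-hydrolysing head and stalks, none passed under CO2 or with lactic acid. In low NaHCO3 3 fell and 1 rose, where 35.8% of all genes fell and 20.5% rose. Atp6v1a, the catalytic subunit, was at 306, 219 and 214 TPM in the controls and at 178, 162 and 175 in low NaHCO3, below all controls (-0.50 ± 0.15, limma adjusted p = 0.0165, and -0.33 without control 1). It lost the call without low NaHCO3 2. It was at 205, 239 and 183 under CO2 and at 216, 211 and 170.3 TPM with lactic acid, where the groups overlapped. Atp6v1d (-0.54 ± 0.11), of the central rotor, and Atp6v1e1 (-0.56 ± 0.16), of the peripheral stalks, fell too (limma adjusted p = 0.00172 and 0.012). Atp6v1a and Atp6v1e1 were not called after median-of-ratios scaling, with or without control 1, and Atp6v1d was not called after it without control 1. Atp6v1h, a regulatory subunit of V1, went the other way. It was at 59.5, 60.3 and 56.7 TPM in the controls, 43.9, 59.5 and 38.6 under CO2, 54.0, 53.0 and 37.4 with lactic acid and 83.6, 78.8 and 79.8 TPM in low NaHCO3. The 3 low NaHCO3 libraries lay above the other 9 (0.45 ± 0.16, limma adjusted p = 0.0348, and 0.46 without control 1). That call was lost when control 2, control 3 or any 1 of the low NaHCO3 libraries was left out (adjusted p up to 0.166 over the alternatives). Against the other treatments Atp6v1h rose in every alternative (0.78 ± 0.16 over CO2 and 0.75 ± 0.16 over lactic acid). Atp6v1b2, the other ATP-binding subunit, rose in low NaHCO3 only without control 1 (0.28, against -0.02 with it). Atp6v1c1 and Atp6v1f were not called in any of the 3 comparisons with control. Of the 2 accessory genes, Atp6ap1 rose in low NaHCO3, from 395, 364 and 373 to 451, 423 and 433 TPM (0.21 ± 0.08, limma adjusted p = 0.0415), a call made in 23 of 39 alternatives and lost without control 2 or any 1 low NaHCO3 library, among others. Atp6ap2 was not called against control.

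**Figure D2:**
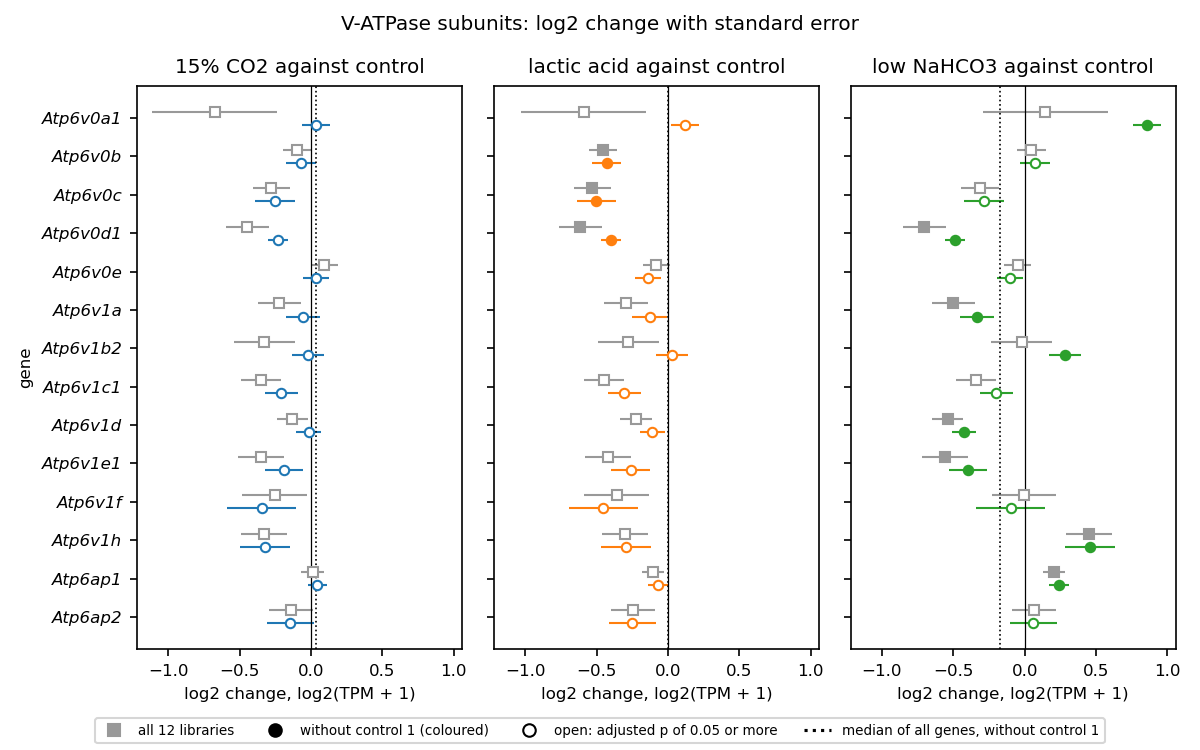
Log2 change on the log2(TPM + 1) scale, with standard error, of the 14 V-ATPase genes in each treatment against control, for all 12 libraries (grey squares) and without control 1 (coloured circles), filled where the adjusted p was under 0.05, with the median of all genes without control 1 as a dotted line. The grey points lie left of the coloured ones for most genes, and Atp6v0b, Atp6v0c and Atp6v0d1 are filled in both fits for lactic acid.

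Over the 14 V-ATPase genes the median log2 change was -0.27 for CO2, -0.33 for lactic acid and -0.04 for low NaHCO3, where all genes had 0.01, -0.03 and -0.19. Without control 1 the V-ATPase medians were -0.11, -0.26 and -0.10, where all genes had 0.03, -2.1e-07 and -0.17. With lactic acid all 14 values were below 0, and 12 of 14 without control 1. After median-of-ratios scaling the median in low NaHCO3 turned to 0.16. It was -0.17 after quantile normalization and -0.13 with mitochondrial and the 10 most abundant genes left out. Libraries CO2 3 and lactic acid 3 held the lowest value of their group for 12 and 11 of the 14 pump genes, at a median of 0.861 and 0.851 times the mean of the other 2, against 0.987 for low NaHCO3 3. The same held for 16 and 13 of the 21 lumenal genes, at a median of 0.920 in both, and for 31 and 28 of all 44. How often CO2 3 and lactic acid 3 were lowest over all genes was not computed. Lactic acid 3 held 145 TPM of Atp6v1f, where the other 2 held 272 each. Without control 1, CO2 3 and lactic acid 3 together, Atp6v0b, Atp6v0c and Atp6v0d1 still fell with lactic acid, as the only 3 of the 14 called.

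Of the 7 membrane genes, 1 rose and 2 fell in low NaHCO3, where 20.5% of all genes rose and 35.8% fell. Lamp1 encodes the most abundant glycoprotein of the lysosomal membrane. It was at 672, 879.6 and 914 TPM in the controls, 889, 840.4 and 927 under CO2, 857, 885 and 1009.7 with lactic acid and 1112, 1111 and 1259.8 TPM in low NaHCO3. The low NaHCO3 libraries lay above the other 9 (0.51 ± 0.13, limma adjusted p = 0.00814, and 0.37 without control 1), although the call was lost under quantile normalization in both fits. Cln3, a membrane protein whose loss causes juvenile Batten disease, was at 9.49, 7.90 and 9.42 TPM in the controls, 10.1, 10.7 and 9.25 under CO2, 8.53, 8.18 and 7.16 with lactic acid and 5.01, 4.80 and 4.57 TPM in low NaHCO3. It fell there (-0.78 ± 0.11, limma adjusted p = 0.000222), in 38 of 39 alternatives, the exception being quantile normalization (-0.20). Mcoln1, the calcium channel TRPML1, was at 29.7, 25.4 and 26.0 TPM in the controls and 22.4, 20.7 and 21.2 in low NaHCO3 (-0.32 ± 0.10, limma adjusted p = 0.0204). Its levels under CO2 (30.6, 27.2 and 30.6 TPM) and with lactic acid (25.5, 24.1 and 29.9 TPM) overlapped the controls, and its fall in low NaHCO3 was not called after median-of-ratios scaling or without low NaHCO3 2 or 3.

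Npc1, the membrane protein that exports cholesterol from the lysosome, was the membrane gene that rose with lactic acid. It was at 25.3, 32.0 and 32.3 TPM in the controls, 34.9, 34.1 and 34.6 under CO2, 43.1, 42.6 and 42.0 with lactic acid and 33.1, 33.8 and 34.0 TPM in low NaHCO3. The 3 lactic acid libraries lay above the other 9 and close together. Against control the change was 0.51 ± 0.09 (limma adjusted p = 0.0178) and 0.39 without control 1. Without control 1 it was also the 1 lysosomal gene that differed between CO2 and lactic acid (CO2 minus lactic acid -0.29 on the log2 scale, where 4.84% of all genes passed, 1.73% in that direction). With all 12 libraries none of the 44 differed between them by limma (0.333% of all genes passed). An unadjusted limma p under 0.05 was found for 4 of the 44, where 1019 of all 11996 genes had one. Lamp2 and Cd63 were not called against control in either fit. Cd63 held 400.2 TPM in control 1, 495 in CO2 3 and 413 in lactic acid 3, against 611 to 807 TPM in the other 9. Scarb2, the receptor that carries glucocerebrosidase to the lysosome, rose in low NaHCO3 only without control 1 (0.25, against 0.13 with it).

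Of the 6 peptidases, 3 rose in low NaHCO3, where 20.5% of all genes rose. Ctsb, cathepsin B, was at 509, 661 and 673 TPM in the controls, 774, 835 and 724 under CO2, 798, 813 and 774 with lactic acid and 1034, 995 and 1009.5 TPM in low NaHCO3. All 9 treated libraries lay above the controls, and the low NaHCO3 libraries above all others. Its change was 0.73 ± 0.12 in low NaHCO3 (limma adjusted p = 0.000421, at most 0.00739 over the alternatives), 0.35 ± 0.12 under CO2 (0.195) and 0.38 ± 0.12 with lactic acid (0.0912). Ctsd, the aspartic protease cathepsin D, was at 223, 271 and 276 TPM in the controls, 301, 306 and 253 under CO2, 279.9, 280.2 and 209 with lactic acid and 366, 377 and 392 TPM in low NaHCO3, again the 3 highest (0.56 ± 0.13, limma adjusted p = 0.0044). Of its 50-base stretches 32.35% also occur in the predicted gene Gm49369, listed at 0 in these libraries. Ctsa, the serine carboxypeptidase known as protective protein, rose from 134, 179.5 and 185 to 212, 214 and 231 TPM (0.41 ± 0.12, limma adjusted p = 0.0111). Ctsl, a cysteine protease, was not called. Controls were at 261, 433 and 442 TPM, CO2 at 492, 493 and 443, lactic acid at 551, 565 and 468 and low NaHCO3 at 471, 455 and 486 TPM, so that control 1 stood low and controls 2 and 3 just under the treated libraries. Ctsz, another cysteine protease, and Tpp1, a tripeptidyl peptidase, were not called against control either.

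The largest rise and the largest fall of the 44 were among the 8 glycosidases, with which the sulfatase Sgsh is counted. Hexa, the alpha subunit of beta-hexosaminidase A, which is missing in Tay-Sachs disease, was the gene that rose. It was at 208, 298 and 301 TPM in the controls, 355, 396 and 346 under CO2, 355, 364 and 329.7 with lactic acid and 705, 774 and 722 TPM in low NaHCO3. The low NaHCO3 libraries held 2.45 times the mean of controls 2 and 3 and lay above all 9 others. The log2 change was 1.46 ± 0.14 (limma adjusted p = 9.26e-06) and 1.29 without control 1, with a range of 1.08 to 1.66 over the alternatives. Gm2a, the activator that presents ganglioside to hexosaminidase A, was listed at 24.9 TPM in control 1 and at 0 to 0.143 TPM in the other 11.

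Neu1 had the largest fall. It encodes the lysosomal sialidase, which is active only in a complex with the product of Ctsa, where beta-galactosidase, the product of Glb1, is also bound. Neu1 was at 48.4, 54.0 and 52.2 TPM in the controls, 63.3, 66.5 and 55.7 under CO2, 50.5, 51.4 and 49.2 with lactic acid and 18.3, 15.9 and 14 TPM in low NaHCO3. The low NaHCO3 libraries lay far below the other 9 (-1.63 ± 0.10, limma adjusted p = 1.02e-06, with a range of -1.76 to -1.39 over the alternatives). Glb1 fell in low NaHCO3 but had higher values in the other treatments. Controls were at 32.3, 49.5 and 43.8 TPM, CO2 at 61.4, 60.7 and 57.1, lactic acid at 61.4, 55.2 and 59.95 and low NaHCO3 at 32.9, 31.2 and 29.2 TPM. Against control the change in low NaHCO3 was -0.40 ± 0.13 (limma adjusted p = 0.0234) and -0.57 without control 1, with control 1 inside the low NaHCO3 range. With all 12 libraries, leaving out control 2, control 3, low NaHCO3 2 or low NaHCO3 3 ended that call, as did median-of-ratios scaling. Under CO2 and with lactic acid Glb1 rose only without control 1 (0.35 and 0.33, against 0.52 and 0.50 with it). So of the 3 partners, Ctsa rose and Neu1 and Glb1 fell in low NaHCO3.

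Gaa, the acid alpha-glucosidase that breaks down glycogen, was the 1 gene that rose in all 3 treatments and in both fits. It was at 157, 165 and 177 TPM in the controls, 247, 244 and 211 under CO2, 222, 221 and 239 with lactic acid and 225, 244 and 204 TPM in low NaHCO3. All 9 treated libraries lay above all 3 controls, and the treated groups overlapped. Its log2 changes were 0.49 ± 0.10 (limma adjusted p = 0.032), 0.45 ± 0.10 (0.0306) and 0.43 ± 0.10 (0.00311), against the same controls. Under CO2 the call was made in 28 of 39 alternatives and lost without control 2, CO2 1, CO2 2, lactic acid 1, lactic acid 2 or low NaHCO3 1. Naglu and Manba rose with lactic acid. Naglu, a heparan sulfate glucosaminidase, was at 16.8, 23.4 and 26.1 TPM in the controls, 32.1, 35.1 and 26.8 under CO2, 43.0, 42.9 and 36.1 with lactic acid and 35.1, 42.8 and 24.8 TPM in low NaHCO3. Its change with lactic acid was 0.87 ± 0.20 (limma adjusted p = 0.0393) and 0.70 without control 1, a rise called in 25 of 39 alternatives. In low NaHCO3 it rose by 0.60 ± 0.20, a call lost without control 1 (0.42), low NaHCO3 1 or low NaHCO3 2, and its 3 libraries spread from 24.8 to 42.8 TPM. Manba, beta-mannosidase, was at 21.4, 31.9 and 34.7 TPM in the controls, 49.8, 50.025 and 40.5 with lactic acid (0.68 ± 0.17, limma adjusted p = 0.0469) and 25.4, 26.2 and 24.3 TPM in low NaHCO3. The rise of Manba with lactic acid was called in 21 of 39 alternatives.

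Sgsh, the sulfamidase of heparan sulfate, fell in low NaHCO3. It was at 5.03, 6.39 and 7.09 TPM in the controls, 6.12, 4.34 and 6.74 under CO2, 6.03, 6.55 and 7.68 with lactic acid and 1.87, 2.38 and 2.54 TPM in low NaHCO3. The 3 low NaHCO3 libraries lay below the other 9, which overlapped, at a low level (-1.13 ± 0.18, limma adjusted p = 0.000324). At a few TPM the pseudocount of 1 makes a log2 change smaller than the log2 ratio of TPM. Quantile normalization with all 12 libraries was the 1 alternative of 39 that ended the call (-0.52). Gusb, beta-glucuronidase, fell in low NaHCO3 only without control 1 (-0.59, against -0.35), as did Manba (-0.38, against -0.18). Man2b1, an alpha-mannosidase, was not called against control. Exons of Sgsh, Cln3, Ctsa and Ctsb overlap those of genes on the other strand (Card14, Apobr, Pltp and Fdft1), and those of 14 of the 44 genes overlap some other gene. The use of strand in counting is not given in the sources used here, so reads of such pairs may be mixed.

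**Figure D3:**
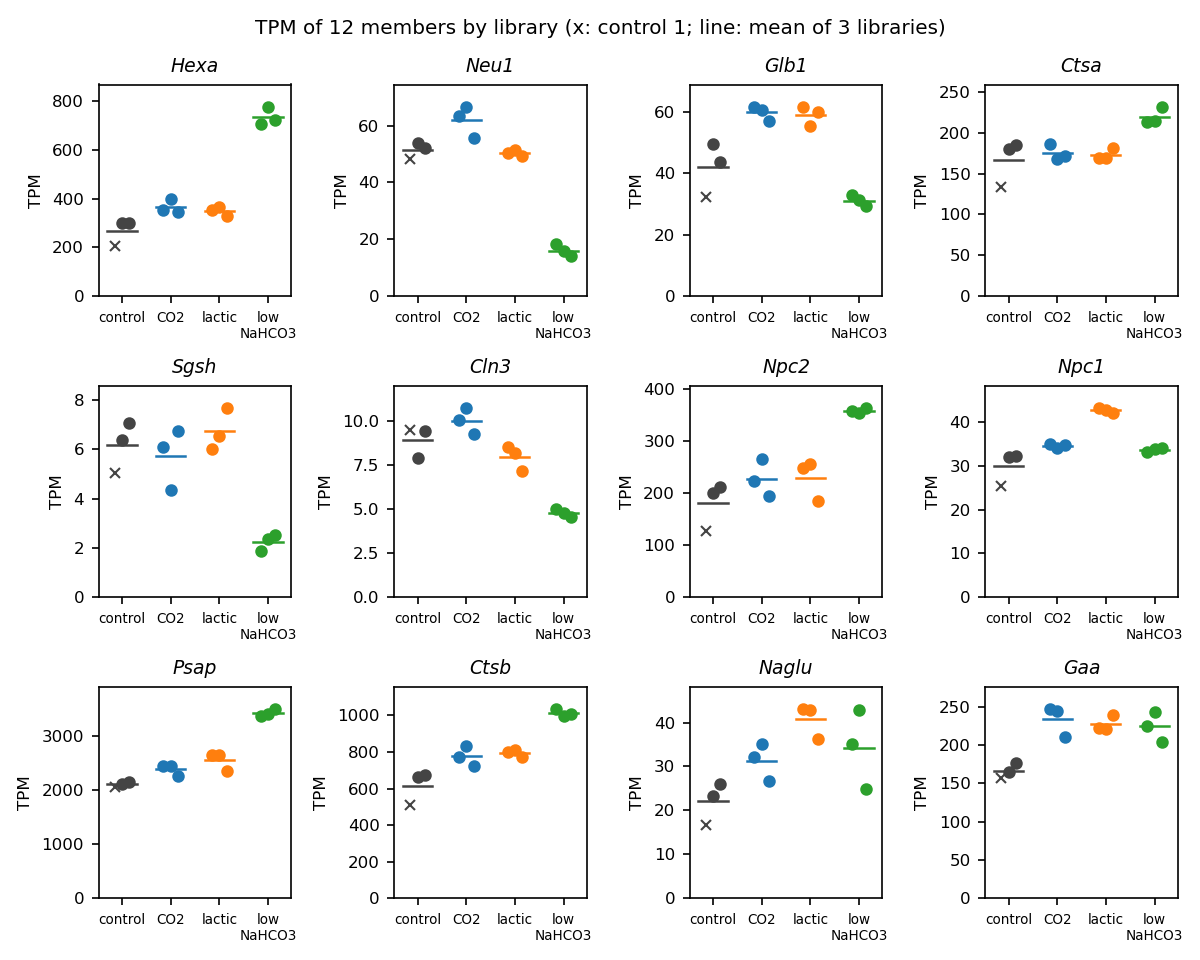
TPM of 12 lysosomal genes in every library, by group, with a line at the mean of 3 libraries and control 1 drawn as a cross. In low NaHCO3, Hexa, Npc2, Psap, Ctsb and Ctsa lie above and Neu1, Sgsh and Cln3 below every other library, Npc1 is highest with lactic acid, and Gaa is higher in all 9 treated libraries.

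Of the 3 lumenal cofactors and carriers, Psap and Npc2 rose in low NaHCO3, where 20.5% of all genes rose. None of the 3 lipid hydrolases did. Psap, the precursor of the saposins, which help hydrolases reach sphingolipids, was the most abundant of the 44 in TPM. It was at 2046, 2108 and 2146 TPM in the controls, 2448, 2446 and 2252 under CO2, 2651, 2644 and 2348 with lactic acid and 3368, 3409 and 3489 TPM in low NaHCO3. The 3 controls were lowest and the 3 low NaHCO3 libraries highest. The change in low NaHCO3 was 0.70 ± 0.13 (limma adjusted p = 0.000844), and the values under CO2 and with lactic acid (0.18 and 0.28) were not called. Npc2, which hands cholesterol to NPC1, was at 127, 201 and 213 TPM in the controls, 224, 266 and 195 under CO2, 248, 256 and 185 with lactic acid and 359, 354 and 364 TPM in low NaHCO3. It rose there by 1.02 ± 0.20 (limma adjusted p = 0.00119) and by 0.79 without control 1, with the low NaHCO3 libraries above all others. Grn, progranulin, was not called. Its controls 2 and 3 were at 469 and 488 TPM, control 1 at 280.1, and the 9 treated libraries at 494 to 538 TPM. Among the lipid hydrolases, Ppt1, a thioesterase, fell in low NaHCO3 from 138, 141 and 131 to 114, 116 and 118 TPM (-0.24 ± 0.09, limma adjusted p = 0.0431), close to the median of all genes. That call was made in 12 of 39 alternatives, and leaving out control 2, control 3 or any 1 low NaHCO3 library ended it. Asah1, acid ceramidase, fell only without control 1 (-0.47, against -0.26), from 425 and 418 TPM in controls 2 and 3 to 297, 310.0 and 304 TPM. Lipa, the acid lipase, was not called.

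**Figure D4:**
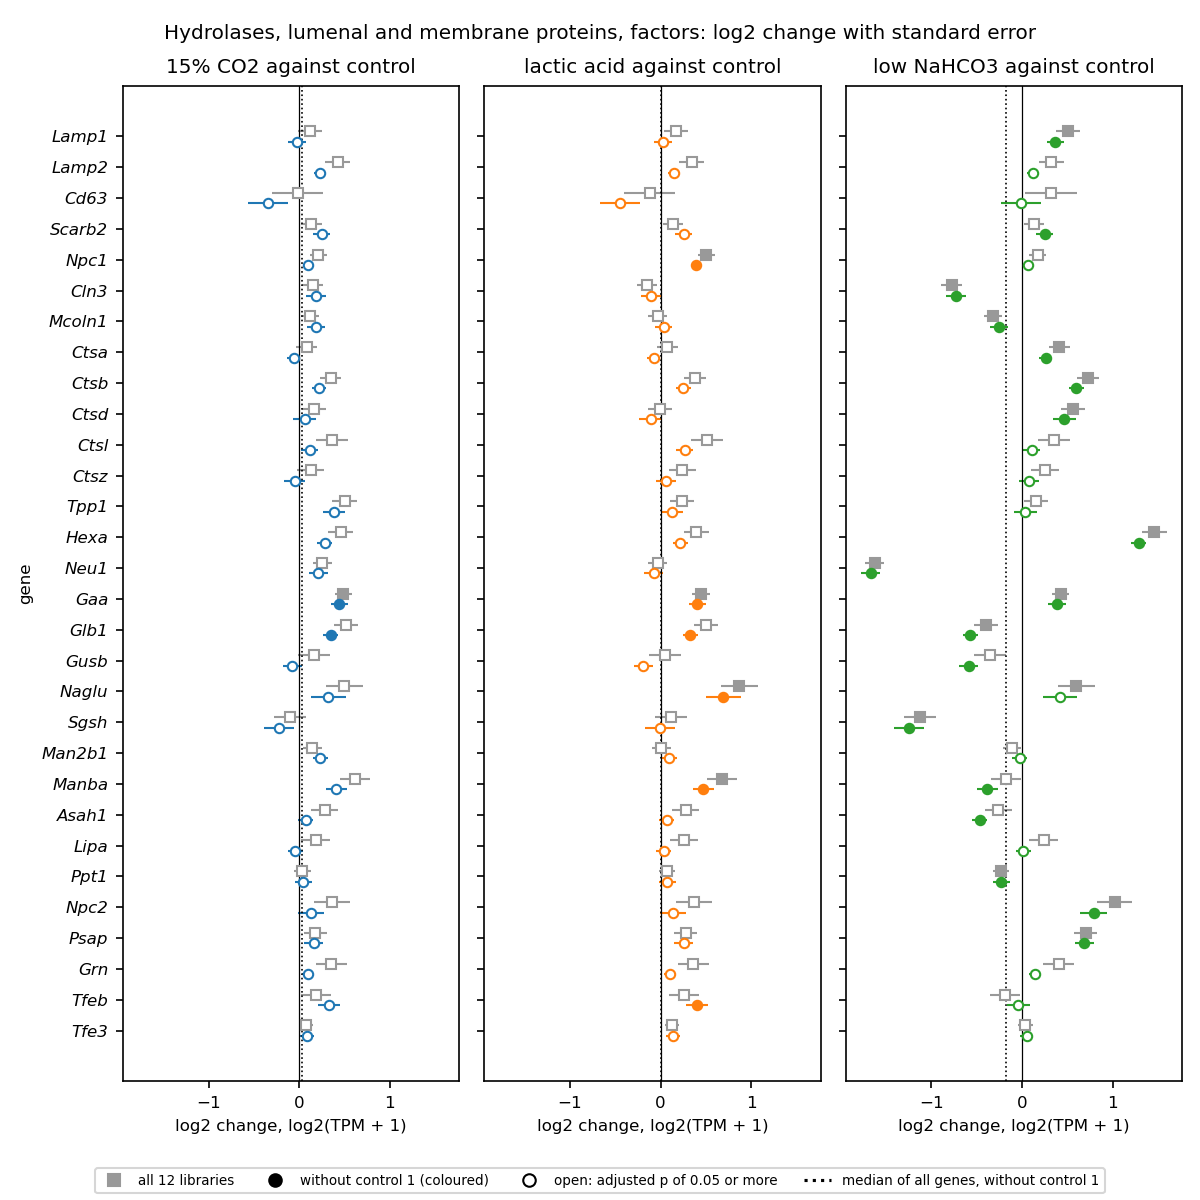
Log2 change on the log2(TPM + 1) scale, with standard error, of the 30 genes outside the V-ATPase in each treatment against control, for all 12 libraries (grey squares) and without control 1 (coloured circles), filled where the adjusted p was under 0.05, with the median of all genes without control 1 as a dotted line. In low NaHCO3 Hexa (1.46) and Neu1 (-1.63) mark the extremes, and most grey points lie right of the coloured ones.

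The medians of the 21 lumenal genes were above 0 in the 3 treatments and nearer to it without control 1. They were 0.28 for CO2, 0.28 for lactic acid and 0.26 for low NaHCO3, where all genes had 0.01, -0.03 and -0.19. Without control 1 the lumenal medians were 0.13, 0.11 and 0.08, where all genes had 0.03, -2.1e-07 and -0.17. In low NaHCO3, 8 of the 21 rose and 4 fell, where 20.5% of all genes rose and 35.8% fell. Without control 1, 7 rose and 7 fell, where 23.3% and 41.4% of all genes did. After median-of-ratios scaling 12 rose and 2 fell with all 12 libraries, where 29.7% and 27.1% of all genes did. The lumenal median in low NaHCO3 was then 0.45, and 0.27 without control 1, where all genes had -0.01 and 0.004. With all 12 libraries it was 0.17 after quantile normalization and 0.16 with mitochondrial and the 10 most abundant genes left out. Of the 44 genes, those that rose in low NaHCO3 without any of these changes had a median level of 301 TPM and those that fell 82.3 TPM. This level is over the 11 libraries other than control 1, the 3 low NaHCO3 libraries included, so it is not independent of the calls. Median transcript lengths were 2657 and 3066 bases in an older annotation.

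Neither factor was called against control with all 12 libraries. Tfeb was at 2.63, 1.54 and 1.83 TPM in the controls, 2.43, 2.21 and 2.51 under CO2, 2.68, 2.23 and 2.75 with lactic acid and 1.73, 1.46 and 1.65 TPM in low NaHCO3. Control 1 lay above all 3 CO2 libraries and within the lactic acid range, and controls 2 and 3 lay under CO2 and lactic acid. It rose with lactic acid only without control 1 (0.40, called in 5 of 38 alternatives). Tfe3 was at 19.4, 19.7 and 18.1 TPM in the controls, 19.8, 20.5 and 20.1 under CO2, 19.9, 21.0 and 21.6 with lactic acid and 20.0, 18.6 and 20.1 TPM in low NaHCO3, with no call against control. In low NaHCO3 Tfeb was lower than with lactic acid in both fits (-0.44), but the call was made in 23 of 38 alternatives, whose values ran from -0.63 to 0.01. These are mRNA levels, and where the proteins were in the cell was not measured.

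Low NaHCO3 was also set against the other treatments. Against CO2, 8 of 44 were higher and 12 lower, where 52.7% of all genes passed (18.1% up and 34.6% down). Against lactic acid 9 were higher and 11 lower, where 50% passed (18.3% up and 31.7% down). Without control 1 in the fit, 11 were higher and 15 lower than under CO2, where 70.2% passed (24.3% up and 45.9% down). Against lactic acid 12 were then higher and 12 lower, where 68.3% passed (25% up and 43.3% down). Median-of-ratios scaling in that fit gave 22 higher and 7 lower than under CO2 (37.2% and 34.9% of all genes) and 22 higher and 9 lower than with lactic acid (36.6% and 34.4%). Neu1 was lower by 1.88 on the log2 scale than under CO2 (log2 change -1.88 ± 0.10, limma adjusted p = 5.13e-07) and by 1.60 than with lactic acid (-1.60 ± 0.10, 1.65e-06). Hexa was higher by 1.0 ± 0.14 (limma adjusted p = 0.000125) and 1.07 ± 0.14 (9.37e-05). Glb1 was lower in both (-0.92 and -0.90), as were Manba (-0.79 and -0.86), Sgsh (-1.03 and -1.25) and Cln3 (-0.92 and -0.63). Atp6v0b was higher than with lactic acid by 0.50 ± 0.10 (limma adjusted p = 0.00179), which held in every alternative. Npc1 was lower than with lactic acid by 0.33 on the log2 scale (-0.33 ± 0.09, limma adjusted p = 0.0121). Both these comparisons share the low NaHCO3 libraries.

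Other genes of the pathway were taken from 6 lists of 125 genes, of which 114 were tested. In low NaHCO3 21 of them rose and 36 fell, where 20.5% of all genes rose and 35.8% fell, so their shares lay near the background. Without control 1, 30 rose and 36 fell, where 23.3% and 41.4% of all genes did. After median-of-ratios scaling 39 rose and 23 fell, where 29.7% and 27.1% of all genes did, and this scaling turned the balance of several lists. Of 25 tested hydrolases and activators outside the 44, 4 rose and 7 fell in low NaHCO3, and 10 rose and 7 fell after that scaling. Gnptab, which makes the mannose 6-phosphate tag that sends hydrolases to the lysosome, was at 57.8, 55.9 and 53.1 TPM in the controls and 17.4, 20.4 and 15.8 in low NaHCO3 (-1.59, limma adjusted p = 1.63e-06). Hyal2, a hyaluronidase, fell by 1.31 on the log2 scale. Ids, iduronate sulfatase, fell by 1.77, and by 0.95 without control 1, which held 211 TPM of it. Of 18 other membrane proteins 3 rose and 6 fell, and 7 rose and 4 fell after that scaling. Ctns, the cystine exporter, went from 31.9, 26.1 and 32.1 to 9.79, 10.3 and 8.66 TPM (-1.55), and Slc17a5, the sialic acid exporter, rose by 0.71. Of 8 other V-ATPase genes 2 rose and 1 fell: Tcirg1, the a3 isoform, rose (1.0) from 43.3, 69.3 and 69.8 to 119, 125 and 116 TPM, Atp6v0d2 rose (1.2) but only to 2.05, 2.03 and 2.06 TPM, and Atp6v0a2 fell (-0.52).

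Of 15 genes that sort proteins to the lysosome 2 rose and 7 fell in low NaHCO3 (3 and 8 without control 1), and 5 rose and 3 fell after median-of-ratios scaling. Among them were M6pr, a mannose 6-phosphate receptor (0.55), and Vps33a, of the tethering complexes that fuse endosomes with lysosomes (-1.42, and -1.16 without control 1). Of 20 genes of nutrient sensing 1 rose and 11 fell (2 and 10 without control 1, and 2 and 6 after median-of-ratios scaling). For both lists the background was 20.5% of all genes up and 35.8% down. It was 23.3% and 41.4% without control 1, and 29.7% and 27.1% after that scaling. The Rag GTPases Rragb (-1.45) and Rragd (-1.32) fell, by 1.07 and 0.90 on the log2 scale without control 1, and Fnip1, a partner of folliculin, rose (0.92). Of 28 autophagy genes 9 rose and 4 fell, where 20.5% of all genes rose and 35.8% fell. Without control 1, 15 rose and 4 fell (23.3% and 41.4% of all genes), and after median-of-ratios scaling 13 rose and 2 fell (29.7% and 27.1%). Atg12, a ubiquitin-like conjugation protein, went from 36.1, 31.6 and 30.8 to 72.7, 66.7 and 76.2 TPM (1.11, limma adjusted p = 4.2e-06), and Nbr1, a cargo receptor, rose by 1.10. With lactic acid 7 of the 114 tested genes of these lists rose and 4 fell, where 2.73% of all genes rose and 1.68% fell. Without control 1, 14 of 113 rose and 10 fell, where 9.38% and 7.34% of all genes did. Cd68, a lysosomal glycoprotein, was at 39.6, 61.9 and 65.7 TPM in the controls and 201, 194 and 251 with lactic acid (1.95, limma adjusted p = 0.00174). The 9 markers of microglia and macrophages summed to 6.60 to 11.04 TPM with lactic acid and 8.92 to 9.55 TPM in controls 2 and 3, with C1qa, C1qb and P2ry12 listed at 0 and Tmem119 at 6.04 to 10.2 TPM with lactic acid. Their part in the level of Cd68 was not tested. Lgmn, an asparaginyl endopeptidase, rose by 0.63 and Galns by 0.73, and Ctns fell by 0.40. Under CO2, Lgmn was the 1 gene of these lists that rose (0.50, limma adjusted p = 0.0243), where 1.34% of all genes rose. That call was lost after median-of-ratios scaling. Without control 1, 9 of 113 rose, where 6.05% of all genes did.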

How the data were processed

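RNA of 12 libraries was analysed from 1 table. Per the submitters' processing notes, the authors trimmed reads with fastp 0.22.0 and aligned them with HISAT2 2.1.0 to GRCm39. The sources used here do not give the read counter, its annotation or its use of strand. The deposited values are TPM, and each of the 12 columns sums to 1000000. Without counts the depth of a library is unknown, and no counting intervals are given.

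Gene names came from GENCODE M21, which held 21851 of the 21959 Ensembl IDs. From the TPM, log2(TPM + 1) was computed. Tested genes reached 1 TPM in all 3 libraries of some group: 11996, or 11941 without control replicate 1. In the latter fit the control group was short of 3 libraries, so no gene could pass by the controls alone. A group-means model was fitted with limma 3.58.1 (R 4.3.3), using trended eBayes. Tests were two-sided, and p-values were adjusted by Benjamini-Hochberg over all tested genes within each of 6 contrasts, with a threshold of 0.05. The fit was tested on simulated data. Full values are given for the 4 highest and 4 lowest called genes of each treatment in either fit, the 3 highest and 3 lowest of each treatment pair, and a panel of 13 genes. Others given in full, such as Psap and Ctsa, were added for their role or level. The genes and lists were chosen with earlier results of these data known. Alternatives were median-of-ratios scaling, quantile normalization, a pseudocount of 0.1, a stricter filter (5 TPM) or none, fewer genes or groups, other eBayes settings, a replicate block and left-out libraries. Fits without control 1 and a second library, and removal of a trend with transcript length, were chosen after seeing the data. Motifs were searched in RefSeq promoters of GRCm38.p6. Some values are not reported here.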

Additional observations from a re-analysis of the deposited data

How the results depend on the processing

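The number of the 44 genes called depended on which libraries entered and on the scaling. The share of all genes called moved as well. Without control 1 it was 7.68% for CO2 and 16.7% for lactic acid, against 1.41% and 4.4% with it. The counts in this section are given without that share, so they do not say whether the 44 genes differed from the rest. Leaving out 1 of 12 libraries gave 0 to 2 for CO2 against control, 0 to 9 for lactic acid, 14 to 26 for low NaHCO3, 0 to 1 between CO2 and lactic acid, 11 to 26 for low NaHCO3 against CO2 and 14 to 24 against lactic acid. Leaving out a second library beside control 1 gave 0 to 8, 1 to 12, 16 to 27, 0 to 2, 23 to 28 and 23 to 26. Without control 1, CO2 3 and lactic acid 3 together the first 2 comparisons had 9 and 14, and CO2 against lactic acid 3. For CO2 against control, 3 were called after quantile normalization, 4 without mitochondrial and the 10 most abundant genes, and 0 when only the compared groups were fitted. For lactic acid these were 3 with no filter, 4 with untrended eBayes and 0 with only the compared groups. Low NaHCO3 against lactic acid gave 13 after quantile normalization. Without control 1, median-of-ratios scaling gave 5, 13, 2 and 31 (CO2, lactic acid, CO2 against lactic acid, low NaHCO3 against lactic acid), quantile normalization 9, 14 and 3, removal of the length trend 4, 14 and 2, and a pseudocount of 0.1 gave 2 and 1 for CO2 against control and against lactic acid. The cause was not tested. For Atp6v0a1 in low NaHCO3 the value was 0.86 without control 1, and it reversed to -0.19 without control 2 and -0.23 without control 3. Of the values of single named genes under these settings, 976 kept side and direction, 106 lost and 86 gained the call, and 2 reversed.

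Of 18 same-numbered pairs of libraries, 3 deviated together with a correlation over 0.1 (range -0.149 to 0.49). The highest were CO2 3 with lactic acid 3 (0.49) and CO2 2 with lactic acid 2 (0.351). CO2 1 with lactic acid 1 was at -0.0296, and CO2 2 with lactic acid 1, of unlike number, at 0.394. Whether same-numbered libraries shared a batch was not tested. With the replicate number as a block, 0 genes were called for CO2, 3 for lactic acid, 21 for low NaHCO3, 0 between CO2 and lactic acid, 20 for low NaHCO3 against CO2 and 21 against lactic acid. Without control 1 the block gave 3 for CO2 and 1 between CO2 and lactic acid.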
